A study of Mus musculus with 96 samples.

Results

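The chemokine ligand genes were taken as every probe of the array whose platform symbol is Ccl, Cxcl or Cx3cl followed by a number. This leaves out the receptors and also chemokines with other symbols, such as Xcl1. The rule found 48 probes for 37 genes among the 25697 probes of the array, and 8 of the genes had more than 1 probe. No measured value entered the rule.

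Chemokines are small proteins that cells release, or display on their surface, to draw leukocytes along a gradient by way of receptors that span the membrane. Inflammatory members are induced by signals such as interferons and tumour necrosis factor in macrophages, endothelium and stromal cells, whereas homeostatic members such as Cxcl12 and Ccl21 are made steadily by stroma and place cells within tissues and lymph nodes. In adipose tissue, chemokines that attract monocytes and T cells are known as signs of macrophage accumulation in expanding fat, and Kupffer cells, endothelium and hepatocytes can all make them in liver.

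RNA of male mice, from liver, from skeletal muscle, from brown fat (BAT) and from epididymal white fat (eWAT), was hybridised to Illumina bead arrays, 6 arrays in each of 16 groups and 96 in all. The control mice were C57/Bl6 wild type (WT) with free access to a low fat diet. SIRT1Tg mice, labelled SIRT1Tg/Tg, had the same diet and were taken to carry added Sirt1 copies; the sources used here give no promoter. CR mice were WT on a caloric restriction labelled EODF, an abbreviation the labels do not expand, for 3 months, and EX mice were WT with food at will and a running wheel for 10 weeks. All 4 conditions shared the low fat diet, a final 12 hours without food and killing at 8 a.m.; the sources used here give no ages.

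Array numbers were read as animal numbers, which gives 27 animals. They fall into a lower series A, which holds all EX animals, and a higher series B, which holds all CR animals, while WT and SIRT1Tg had animals in both; no source used here explains the series. Detected probes ran from 5841 to 12752 per liver array, from 8427 to 12321 per muscle array, from 11536 to 12847 per BAT array and from 13130 to 15381 per eWAT array, and precision is limited by how many arrays a group had. Sirt1, the targeted gene, was higher on 6 of 6 SIRT1Tg arrays than on every WT array of muscle, BAT and eWAT. In liver it was higher on 5 of 6; the exception, the SIRT1Tg array liver_1953, read 4.48 on the log2 scale against 5.77 to 6.30 in WT and was also the array with 5841 detected probes. The counts, the differences and the list sums of SIRT1Tg liver are therefore given with and without it. The summed level of the measured liver genes (5 of 5 listed), skeletal muscle genes (5 of 5), brown fat genes (4 of 5) and white fat genes (5 of 5) was at or above 13.97 on the log2 scale on every WT array of the tissue of that name. Skeletal muscle genes ranged from 6.50 to 14.73 among BAT arrays, and epididymis genes from 5.87 to 13.78 among eWAT arrays, in ranges that overlapped between conditions.

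A probe counted as detected where its intensity passed the upper 0.05 tail of the array's own background, and a gene was measured in a tissue where its probe was detected on 6 or more of the 24 arrays. By that rule 27 of the 37 genes were measured in eWAT, 24 in liver, 23 in BAT and 19 in muscle. The 19 genes measured in all 4 tissues were the Ccr1 ligands Ccl5, Ccl6 and Ccl9, the monocyte attractant Ccl8, the eotaxins Ccl11 and Ccl24, the Ccr7 ligands Ccl19, Ccl21a, Ccl21b and Ccl21c, Ccl25 and Ccl27a (ligands of Ccr9 and Ccr10), the neutrophil attractant Cxcl1, the Cxcr3 ligand Cxcl9, the Cxcr4 ligand Cxcl12, the B cell attractant Cxcl13, Cxcl14, and the membrane-anchored ligands Cxcl16 and Cx3cl1. Ccl21a, Ccl21b and Ccl21c are near-identical copies whose probes may share signal, so their values are not independent.

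Ccl4, Ccl7, Ccl12 and Cxcl10 were measured in liver, BAT and eWAT and not in muscle, where they were detected on 0 to 3 of 24 arrays. Ccl3 was measured in liver and eWAT. Ccl2, which recruits monocytes through Ccr2, the Ccr4 ligand Ccl17 and the neutrophil attractant Cxcl2 were measured in eWAT alone, on 13, 9 and 6 of 24 arrays. The remaining 10 genes were detected on at most 2 of 24 arrays in any tissue: Ccl1, Ccl20, Ccl22, Ccl26, Ccl28, Cxcl3, Cxcl5, Cxcl11, Cxcl15 and Cxcl17. These ligands, among them the lung chemokine Cxcl15 and the mucosal chemokines Ccl20, Ccl28 and Cxcl17, enter no comparison.

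**Figure D1:**
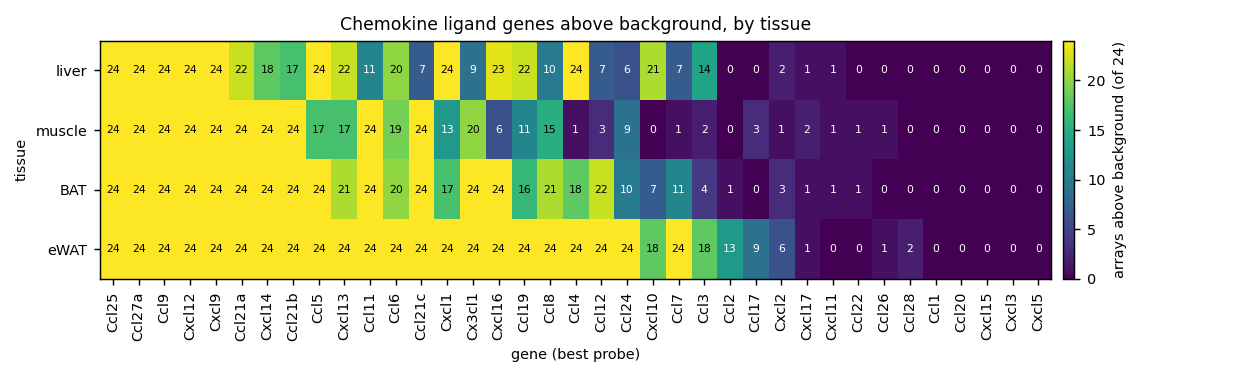
Number of arrays, of 24 in each tissue, on which the best probe of each of the 37 chemokine ligand genes was above background. Ccl25, Ccl27a, Ccl9, Cxcl12 and Cxcl9 reach 24 in all 4 tissues, and the 10 genes furthest to the right reach 2 at most.

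Levels in the WT tissues, normalised together over the 24 WT arrays, were compared with those in WT eWAT, 6 arrays each, for the 26 genes detected on 3 or more WT arrays of any tissue (limma, Benjamini-Hochberg adjusted p under 0.05). In liver 13 of the 26 were lower and 5 higher than in eWAT, where 36.3% of all 11701 features were lower and 25.5% higher. In muscle 19 were lower and 3 higher, against 36% and 31.4% of features, and in BAT 14 were lower and 3 higher, against 26.8% and 23.4%. Genes that entered through eWAT alone could hardly come out higher elsewhere, so the filter fixes part of these counts. Ccl2, for example, was detected on 6 of 6 WT eWAT arrays, 1 BAT array and no liver or muscle array. It counts as lower in all 3 tissues, at 1.18-fold. The same filter applied to all features. In these bulk samples fewer cells of a type and less RNA per cell cannot be told apart.

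Among the ligands lower in liver, the eosinophil attractant Ccl11 read 4.41 ± 0.25 (SD, n = 6) on the log2 scale in liver, where 2 of 6 arrays detected it, and 9.19 ± 0.27 in eWAT, a difference of -4.77 ± 0.14 (limma estimate ± SE, adjusted p = 4.61e-20). Ccl8 differed by -3.73 ± 0.44, Ccl21a by -3.49 ± 0.41 and Ccl21b by -3.03 ± 0.38, each with no overlap between the 6 liver and the 6 eWAT arrays. Cxcl1 went the other way, at 8.98 ± 0.75 in liver and 6.13 ± 0.58 in eWAT, a difference of 2.85 ± 0.30 (limma adjusted p = 5.95e-09). Cxcl10, Ccl25 and Cxcl12 were also higher in liver, by 1.15 ± 0.36, 1.11 ± 0.17 and 0.74 ± 0.29. Cxcl12 did not pass in 6 of the 12 fits that left out 1 array, with limma adjusted p up to 0.0753; these left out the liver array liver_1959, liver_1961 or liver_2231 or the eWAT array WAT_2226, WAT_2228 or WAT_2232.

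In muscle, Ccl9 differed from its eWAT level by -4.03 ± 0.39, Cxcl9 by -3.68 ± 0.49, Ccl8 by -3.34 ± 0.44 and Ccl5 by -3.10 ± 0.61, with limma adjusted p from 1.45e-09 to 7.23e-05 and n = 6 arrays a tissue. Ccl7 and Ccl4, named after their values were seen, were detected on none of the 6 WT muscle arrays and were at least 3.52-fold and 3.36-fold lower there than in eWAT. Cxcl14 and Ccl25 were higher in muscle and in BAT than in eWAT. Cxcl14 read 7.65 ± 0.35 in muscle, then 6.56 ± 0.41 in BAT, 4.89 ± 0.42 in liver and 4.73 ± 0.09 in eWAT, so that muscle stood 2.92 ± 0.19 and BAT 1.83 ± 0.19 above eWAT (limma adjusted p = 6.9e-13 and 1.23e-08), while liver minus eWAT was 0.16 ± 0.19 (limma adjusted p = 0.472). Ccl25 and Ccl27a were higher than in eWAT in all 3 other tissues, by 1.09 to 1.39 and by 0.46 to 1.01, except that Ccl27a in muscle read -0.02 against eWAT under median scaling. The difference of Ccl27a in liver was not followed under other processing. In BAT, Ccl9, Ccl8, Ccl6 and Ccl5 were lower than in eWAT, with differences of -3.05 ± 0.39, -2.60 ± 0.44, -2.27 ± 0.27 and -1.92 ± 0.61.

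Each condition was then compared with WT of the same tissue by limma over all 24 arrays of the tissue, with the number series as a term, so that a fitted difference need not equal the difference of the group means. The 3 comparisons of a tissue share its 6 WT arrays. Ligand genes passed in 2 of the 12 comparisons, eWAT under CR and BAT under EX, with 6 genes in each and all of them lower than WT. No ligand gene passed in the direction of higher expression in these fits; with slide as a random block, Ccl27a did in BAT under EX (0.53, limma adjusted p = 0.0452).

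**Figure D2:**
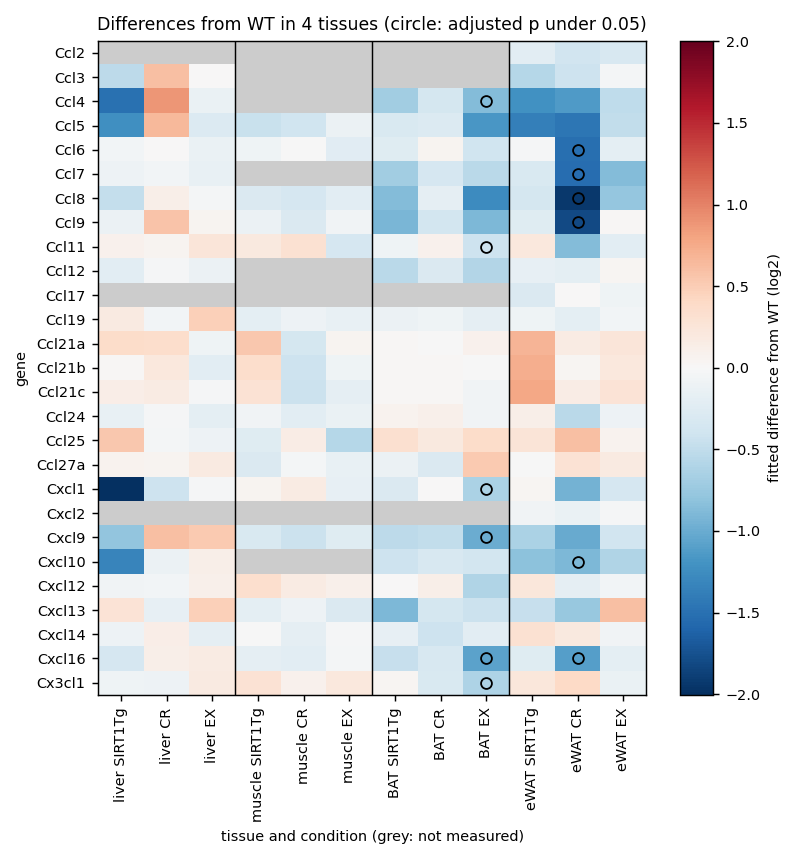
Fitted log2 difference from WT for the 27 measured ligand genes (rows) in the 12 tissue and condition comparisons (columns); blue is lower than WT, red higher, grey not measured, and a circle marks an adjusted p under 0.05. The 12 circles lie in the BAT EX and eWAT CR columns and all sit on blue cells.

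In eWAT under CR, 6 of the 27 measured ligands fell, where 2.88% of all 11791 features fell and 0.729% rose. They were the monocyte attractants Ccl8 and Ccl7, the Ccr1 ligands Ccl9 and Ccl6, the interferon-induced Cxcr3 ligand Cxcl10 and the Cxcr6 ligand Cxcl16, and they fell by 1.86-fold to 3.82-fold. At an unadjusted p under 0.05, 12 of 27 were lower, against 8.91% of features, and 1 was higher. The median difference over the measured ligands was -0.42, against 0.02 over all features, and 19 of 27 lay below 0, against 46.9%.

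Ccl8 read 7.98 to 10.06 (median 8.81) on the 6 WT arrays and 7.14 to 8.32 (median 7.63) on the 6 CR arrays. The 2 groups overlapped, since the CR array highest in Ccl8 stood above the lowest WT array, and the series B WT arrays were the 3 highest. The fitted difference was -1.93 ± 0.29 (limma, adjusted p = 0.00129). Ccl7 read 6.59 to 7.72 (median 7.14) in WT and 5.50 to 5.96 (median 5.64) under CR, with every CR array below every WT array, and fell by 1.52 ± 0.29 on the log2 scale (limma adjusted p = 0.00416).

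Ccl9 read 10.41 to 11.91 (median 11.28) in WT and 8.94 to 9.89 (median 9.70) under CR. No CR array reached the WT range, and the difference was -1.81 ± 0.36 (limma adjusted p = 0.00537). Ccl6, its neighbour on the chromosome, read 7.53 to 8.98 (median 8.12) in WT and 5.87 to 7.15 (median 6.90) under CR, again without overlap, a difference of -1.51 ± 0.37 (limma adjusted p = 0.0199). Of all features, 1.54% had every CR array below every WT array; of the measured ligands these were Ccl7, Ccl9, Ccl6 and Ccl2.

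Cxcl10 lay close to background. It was detected on 6 WT and 4 CR arrays and read 4.73 to 5.90 (median 5.40) in WT and 4.30 to 4.93 (median 4.69) under CR, with a difference of -0.89 ± 0.18 (limma adjusted p = 0.00559) and overlapping groups. Cxcl16 read 7.23 to 8.63 (median 8.15) in WT and 6.69 to 7.30 (median 7.19) under CR. Its groups overlapped through the lowest WT array, and the difference was -1.11 ± 0.27 (limma adjusted p = 0.0227).

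**Figure D3:**
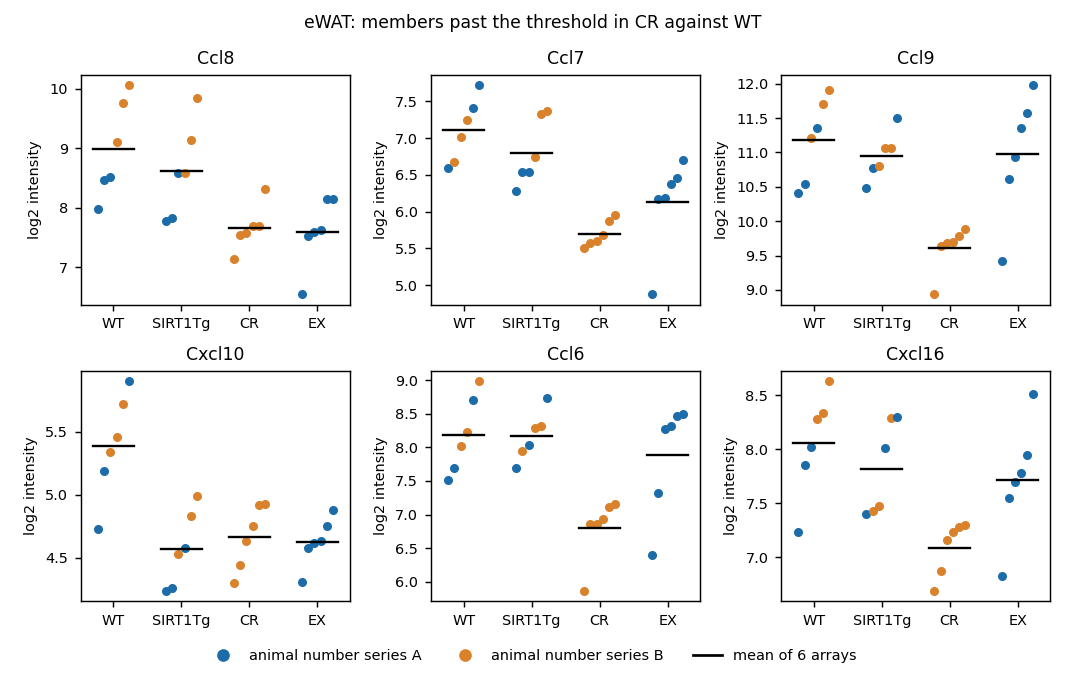
Log2 intensity of the 6 ligand genes that passed in eWAT under CR, on every eWAT array of the 4 conditions; points are arrays, coloured by animal number series, and bars are means of 6. Every CR array of Ccl7, Ccl9 and Ccl6 lies below every WT array, whereas Ccl8, Cxcl10 and Cxcl16 overlap.

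Other ligands, named here after their values were seen, lay outside the threshold. Ccl4 and Ccl5, which attract T cells and monocytes, differed by -1.14 ± 0.33 and -1.45 ± 0.43 (limma adjusted p = 0.0586 and 0.0703). Both passed with the deposited log2 matrix, without background correction, under median scaling and with series B alone (limma adjusted p from 0.00724 to 0.0482). They also passed without the WT array WAT_1960 or WAT_1961 (0.0235 to 0.0474). Ccl2 was detected on 6 of 6 WT arrays and on none of the 6 CR arrays, at least 1.18-fold lower, with a limma adjusted p of 0.106. Cxcl9, Cxcl1 and Ccl11 differed by -1.01 ± 0.35, -0.95 ± 0.34 and -0.87 ± 0.39, and Ccl25 by 0.60 ± 0.23, with limma adjusted p from 0.135 to 0.282. Without the series term Ccl2 and Cxcl1 passed, at -0.45 and -1.15 (limma adjusted p = 0.0311 and 0.0362). With series B alone Cxcl9 passed, at -0.95. The Ccr7 ligands Ccl19, Ccl21a, Ccl21b and Ccl21c lay between -0.20 and 0.16. For Cxcl12 the probes disagreed: the probe of highest mean differed by -0.18 ± 0.26 (limma adjusted p = 0.871), and a further probe by -0.78 ± 0.19 (limma adjusted p = 0.0243 with every probe as a feature), an example chosen after its values were seen.

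The CC ligands that fell under CR lie in runs of CC ligand genes whose other members did not pass or were not measured. By RefSeq genes of assembly GRCm38.p6, Ccl2, Ccl7, Ccl11, Ccl12, Ccl8 and Ccl1 follow each other on chromosome 11 with no other coding gene between them, and so do Ccl5, Ccl9, Ccl6, Ccl3 and Ccl4. The table of RefSeq promoters held 25 of the 37 ligand genes and 7 of the 11 genes that passed in either comparison. The 250 bases before the annotated start of 4 of these are shown as examples of genes from both comparisons and from SIRT1Tg liver, chosen after the matches were seen. Of the other 3, Cx3cl1 and Cxcl9 each hold a single match, TATAAA on the gene's own strand at 6 and at 195 bases before the start, and Ccl6 holds none of the letters searched. The 4 shown lie in GRCm38.p6 at chr11:82114935-82115184 on the plus strand (Ccl8), chr11:83578637-83578886 on the minus strand (Ccl9), chr5:92348890-92349139 on the minus strand (Cxcl10) and chr5:90890995-90891244 on the plus strand (Cxcl1), and are written 5′ to 3′ in the direction of the gene. Capitals mark matches, on either strand, to the TATA box (TATAAA), the kappa B element (GGG, any 2 bases, TTTCC), the interferon-stimulated response element (GAAA, any 2 bases, GAAA), the AP-1 site (TGA, any base, TCA) and the gamma-activated sequence (TTC, any 3 bases, GAA). Only these letters were searched. Close variants, such as gggaaattcc in Cxcl10 beside the kappa B letters, stay in lower case.
Ccl8: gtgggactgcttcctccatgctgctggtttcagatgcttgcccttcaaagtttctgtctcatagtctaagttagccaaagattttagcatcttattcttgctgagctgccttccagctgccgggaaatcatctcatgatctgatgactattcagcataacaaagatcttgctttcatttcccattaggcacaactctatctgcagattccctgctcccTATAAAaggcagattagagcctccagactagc
Ccl9: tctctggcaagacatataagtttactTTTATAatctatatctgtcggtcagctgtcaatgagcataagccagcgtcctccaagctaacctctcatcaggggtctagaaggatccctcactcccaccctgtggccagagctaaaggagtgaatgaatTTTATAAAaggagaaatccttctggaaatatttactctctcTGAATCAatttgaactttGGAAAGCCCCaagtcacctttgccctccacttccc
Cxcl10: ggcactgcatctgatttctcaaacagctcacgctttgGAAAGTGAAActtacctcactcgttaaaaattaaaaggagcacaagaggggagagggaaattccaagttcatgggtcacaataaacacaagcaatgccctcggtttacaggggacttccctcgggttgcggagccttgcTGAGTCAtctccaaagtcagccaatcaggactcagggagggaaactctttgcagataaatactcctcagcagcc
Cxcl1: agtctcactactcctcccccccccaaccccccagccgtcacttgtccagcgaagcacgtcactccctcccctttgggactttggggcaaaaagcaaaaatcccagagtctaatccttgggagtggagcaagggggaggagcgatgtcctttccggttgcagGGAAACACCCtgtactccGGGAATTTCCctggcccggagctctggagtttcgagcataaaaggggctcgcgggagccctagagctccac

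A TATA box on the gene's own strand begins 32 bases before the start of Ccl8. Ccl9 holds a kappa B match on the opposite strand that begins 35 bases before its start, an AP-1 match at 53, and TATAAA matches of both strands that overlap at 94 and 92 bases, with another at 224. Cxcl10 holds an interferon-stimulated response element match 213 bases and an AP-1 match 74 bases before its start, and Cxcl1 holds 2 kappa B matches, at 89 and 71 bases. The kappa B letters occur in 1.41% of the 32851 promoters of the table and in those of 5 of the 25 ligand genes (Ccl20, Ccl9, Cxcl1, Cxcl2 and Cxcl3). The shares over all promoters were 2.98% for the interferon element, 6.75% for AP-1, 12.4% for TATAAA and 7.02% for the gamma-activated sequence, and 3, 3, 9 and 2 of the 25 ligand genes held them. A match is a description of the letters and no evidence of binding. Lack of a match does not show that an element is absent, since other forms of each element were not searched.

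Some macrophage and T cell genes, from lists chosen with earlier results of these data known, also fell in eWAT under CR. Of 16 listed macrophage genes, 13 were on the array and 11 were measured, and 7 of the 11 fell, at a median of -1.30. Among them, the surface receptor Cd84 differed by -1.74 ± 0.24, the lipid-sensing receptor Trem2 by -1.65 ± 0.29, the complement component gene C1qb by -1.42 ± 0.29 and the mannose receptor Mrc1 by -1.22 ± 0.27 on the log2 scale (limma adjusted p from 0.000694 to 0.0121). The summed macrophage level was 12.53 to 13.75 on the log2 scale in WT and 11.75 to 12.38 under CR, without overlap; Itgam was detected on no eWAT array. Of 8 measured T and NK cell genes 4 fell, namely Cd3g, Cd3d and Cd3e of the T cell receptor complex (-1.32, -1.43 and -0.99) and the cytotoxic granule gene Nkg7 (-1.52), and their summed level was 9.05 to 10.60 in WT and 8.92 to 9.50 under CR; Cd8a and Ncr1 were detected on no eWAT array. Of 3 measured dendritic cell genes Cd209a fell by 0.72 ± 0.20, while their summed level was 6.16 to 7.23 (median 6.93) in WT and 7 to 7.26 (median 7.14) under CR. None of 5 measured neutrophil genes passed, at a median difference of 0.03, and their sum was 7.94 to 9.93 (median 8.49) in WT and 8.65 to 9.35 (median 9.04) under CR. None of 4 B cell genes and none of 4 mast cell and eosinophil genes passed, at medians of -0.91 and -0.49. The part of these cells in the fall of the ligands was not tested.

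On the receiving side, 1 of 11 measured chemokine receptors fell under CR, namely Cxcr3, the receptor of Cxcl9 and Cxcl10 on T cells, by 1.04 ± 0.25 on the log2 scale (limma adjusted p = 0.0177). None of the 14 measured inflammatory cytokine and NF-kB target genes and none of the 15 interferon response genes passed, at medians of -0.28 and -0.26. Nor did any of 3 measured chemokines outside the symbol rule, at a median of -0.54. Of 2 measured skeletal muscle genes Acta1 fell, at -2.64 ± 0.61, and of 5 white fat genes Retn, which encodes resistin, rose by 0.80 ± 0.21. Summed skeletal muscle genes were 9.40 to 11.91 in WT and 6.88 to 9.84 under CR, with Myh4 detected on no eWAT array, and their part was not tested. With the series B arrays alone, 9 ligands passed, and all 6 ligands named above differed there by -2.05 to -0.81. With slide as a fixed term no ligand and no other feature passed, and on the single slide that held a CR and a WT array the differences of the 6 ranged from -0.90 to 0 with 1 array each. Ccl6 did not pass without the WT array WAT_2228 or WAT_2232 (limma adjusted p = 0.109 and 0.051), and Cxcl16 did not without the WT array WAT_2226, WAT_2228 or WAT_2232 or the CR array WAT_2242 or WAT_2245 (0.0516 to 0.115).

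In BAT under EX, 6 of the 23 measured ligands fell, where 3.01% of all 10025 features fell and 1.59% rose. They were Cxcl16, Cxcl9, Ccl4, Cxcl1, Cx3cl1 and Ccl11, and they fell by 1.33-fold to 2.11-fold. At an unadjusted p under 0.05, 10 of 23 were lower, against 11.8% of features, and 2 were higher. The median over the measured ligands was -0.44, against -0.01 over all features, and 20 of 23 lay below 0, against 51.3%.

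Cxcl16 read 5.57 to 6.29 (median 5.85) on the WT arrays and 4.80 to 5.22 (median 4.91) on the EX arrays, all of them below WT, a difference of -1.08 ± 0.17 (limma adjusted p = 0.00133). Cxcl9, a Cxcr3 ligand induced by interferon gamma, read 8.22 to 9.54 (median 8.64) in WT and 7.64 to 8.16 (median 7.78) under EX. The groups did not overlap, and the difference was -0.997 ± 0.223 (limma adjusted p = 0.0119). Ccl11, which attracts eosinophils, read 7.10 to 7.58 (median 7.32) in WT and 6.74 to 7.03 (median 6.995) under EX, without overlap, at -0.42 ± 0.12 (limma adjusted p = 0.0409); its second probe differed by -0.45 ± 0.14 (limma adjusted p = 0.0607 with every probe as a feature). These were the 3 of 23 ligands with every EX array below every WT array, against 1.16% of all features.

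The other ligands overlapped between the groups. Ccl4, made by activated macrophages and T cells, read 4.67 to 5.91 (median 5.39) in WT and 4.19 to 5.01 (median 4.58) under EX, where 4 of 6 arrays detected it, at -0.87 ± 0.20 (limma adjusted p = 0.0128). Cxcl1 read 4.54 to 5.35 (median 4.91) in WT and 4.20 to 4.70 (median 4.45) under EX, where 2 of 6 arrays detected it, at -0.63 ± 0.17 (limma adjusted p = 0.0305). Both therefore lay near background under EX. Cx3cl1, the membrane-anchored ligand of Cx3cr1, read 5.40 to 5.86 (median 5.57) in WT and 4.55 to 5.60 (median 4.95) under EX, at -0.61 ± 0.17 (limma adjusted p = 0.0379).

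**Figure D4:**
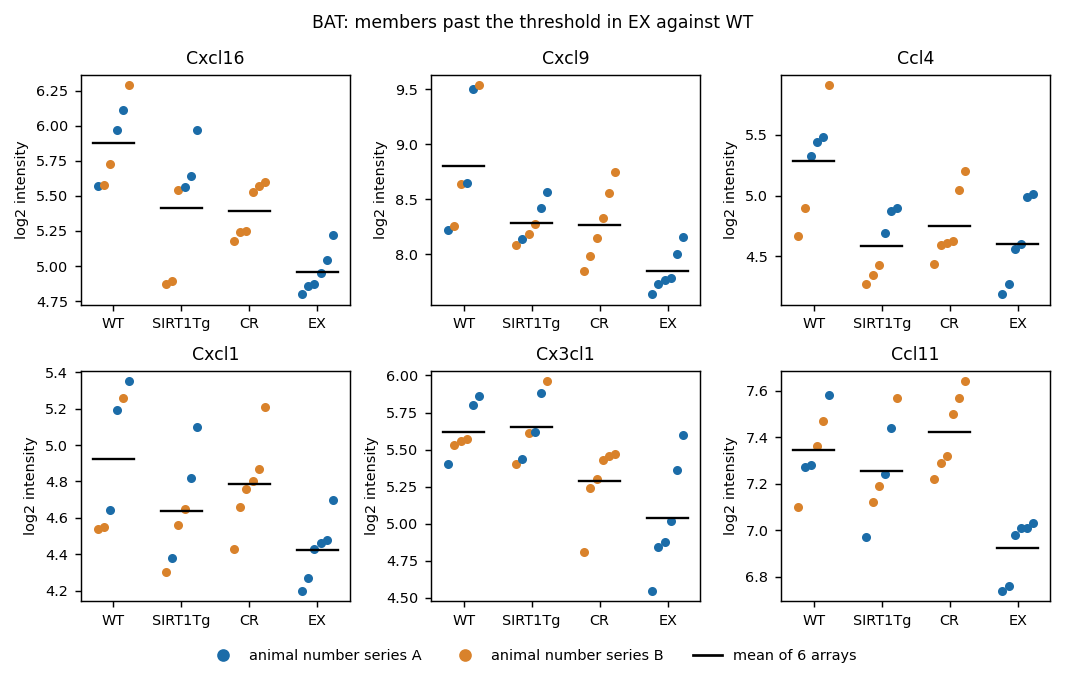
Log2 intensity of the 6 ligand genes that passed in BAT under EX, on every BAT array of the 4 conditions; points are arrays, coloured by animal number series, and bars are means of 6. Every EX array of Cxcl16, Cxcl9 and Ccl11 lies below every WT array, and those of Ccl4, Cxcl1 and Cx3cl1 overlap with WT.

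Ccl27a, Ccl5 and Ccl8, named after their values were seen, lay just outside the threshold in BAT under EX, at 0.53 ± 0.16, -1.17 ± 0.35 and -1.26 ± 0.37 (limma adjusted p = 0.0512, 0.052 and 0.0526). Ccl27a passed without the WT array BAT_1960 or the EX array BAT_1969 (limma adjusted p = 0.0196 and 0.0375), Ccl5 without the WT array BAT_2226 or BAT_2232 (0.0471 and 0.0297), and Ccl8 without the WT array BAT_1959, BAT_1960 or BAT_2232 (0.0159 to 0.0454). Ccl8 spread widely in WT BAT, from 4.76 to 7.58, and lay between 4.36 and 4.89 under EX. Cxcl12 and the monocyte attractant Ccl12 differed by -0.60 ± 0.21 and -0.59 ± 0.24 and Ccl25 by 0.37 ± 0.18, with limma adjusted p from 0.105 to 0.252. Against the series A arrays alone, which hold every EX animal, Cxcl16, Cxcl9 and Ccl4 passed, while Cxcl1, Cx3cl1 and Ccl11 had limma adjusted p of 0.0891, 0.121 and 0.0877. Cxcl12 also passed there, at -0.87 (limma adjusted p = 0.0398), and under median scaling, at -0.73 (0.0232). Without the EX array BAT_1974 or without BAT_1976 the count was 3 ligands, and with slide as a fixed term it was 0, as over all features. In that fit the 6 differences were -1.24 to -0.32 with SE of 0.18 to 0.43 and limma adjusted p from 0.372 to 0.641, and on the single slide with an EX and a WT array the 6 differences ranged from -0.69 to 0.11 with 1 array each. Cxcl9 did not pass without the WT array BAT_1960 (limma adjusted p = 0.0525). Ccl11 did not pass in 9, Cx3cl1 in 6 and Cxcl1 in 4 of the 12 fits that left out 1 array, with limma adjusted p up to 0.157. For Ccl11 the arrays left out were BAT_1959, BAT_1960, BAT_1961, BAT_2226 and BAT_2231 of WT and BAT_1970, BAT_1972, BAT_1974 and BAT_1976 of EX. For Cx3cl1 they were BAT_1959 and BAT_1960 of WT and BAT_1969, BAT_1972, BAT_1974 and BAT_1976 of EX, and for Cxcl1 BAT_1960 and BAT_1961 of WT and BAT_1974 and BAT_1976 of EX.

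Some macrophage genes of the same list fell here too. Of 11 measured macrophage genes in BAT 7 fell under EX, at a median of -0.74, among them Trem2 at -0.75 ± 0.14, C1qb at -1.27 ± 0.28, Cd84 at -0.49 ± 0.12 and C1qc at -1.07 ± 0.26 on the log2 scale (limma adjusted p from 0.00338 to 0.0206). The summed macrophage level was 9.82 to 11.46 in WT and 9.54 to 10.16 under EX, with overlap; Itgam and Itgax were detected on no BAT array. None of 5 measured neutrophil genes passed, at a median of 0.00, nor did the 1 measured B cell gene, the 1 dendritic cell gene or the 3 mast cell and eosinophil genes. Of 6 measured T and NK cell genes none passed, and their summed level was 7.92 to 8.71 in WT and 7.89 to 8.34 under EX, with Cd4, Ncr1 and Gzma undetected. Of 8 fibroblast and preadipocyte genes 2 fell, Pdgfra at -0.64 ± 0.18 and Col1a1 at -0.84 ± 0.22. Skeletal muscle genes, measured 5 of 5, were at a median difference of 1.88 with none past the threshold and ranged from 6.57 to 12.17 in WT and from 6.64 to 14.14 under EX. The part of these cells in the fall of the ligands was not tested.

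Of 11 inflammatory cytokine and NF-kB target genes in BAT 3 fell under EX: the macrophage growth factor Csf1 at -0.38 ± 0.09, the endothelial adhesion molecule Vcam1 at -0.78 ± 0.19 and the cytokine signalling inhibitor Socs3 at -0.40 ± 0.10 (limma adjusted p from 0.0154 to 0.0202). Of 14 interferon response genes 1 fell, Bst2, at -0.96 ± 0.26 (limma adjusted p = 0.0364). None of 6 measured chemokine receptors passed, at a median of -0.20, and none of 2 measured chemokines outside the symbol rule, at a median of -0.42.

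Under SIRT1Tg no ligand passed in any tissue (limma). In liver 0 of 24 passed, where 0.0602% of features did, and 4 had an unadjusted p under 0.05, against 10.2% of features. Without liver_1953, 1 passed, against 0.211% of features, and 5 had an unadjusted p under 0.05, against 12.8%. The smallest p was that of Cxcl1, the neutrophil attractant whose promoter is shown above. It read 7.40 to 9.86 (median 8.94) on the WT liver arrays and 6.22 to 7.34 (median 6.91) on the SIRT1Tg arrays, with every SIRT1Tg array below every WT array, as in 0.501% of features. The fitted difference was -2.004 ± 0.404, a level 24.9% of that in WT, with a limma adjusted p of 0.0562, just outside the threshold. Without the array liver_1953 it was -2.03 with an adjusted p of 0.0457. It was -2.09 with series B alone (adjusted p = 0.00294) and -1.89 with series A alone (adjusted p = 0.763), and the adjusted p ranged from 0.0191 to 0.133 as single arrays were left out, with a pass also without the WT array liver_1961 (-2.24, limma adjusted p = 0.0191). Cxcl10 followed at -1.33 ± 0.44 (limma adjusted p = 0.319, and 0.275 without liver_1953), from 4.17 to 6.86 in WT to 4.18 to 5.19 in SIRT1Tg. None of the 14 measured interferon response genes passed in SIRT1Tg liver, at a median of -0.72, and their summed level was 10.81 to 11.50, with or without liver_1953, against 11.20 to 12.51 in WT. The 14 inflammatory cytokine and NF-kB target genes, none of which passed, summed to 9.77 to 9.93, again with or without that array, against 10.00 to 10.73. The macrophage genes, with Itgam undetected, summed to 9.84 to 10.84, and to 9.84 to 10.64 without it, against 9.71 to 11.57. None of these 3 lists held a gene that passed without it. The part of these lists was not tested.

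In BAT 0 of 23 ligands passed under SIRT1Tg, against 0.389% of features (limma), and 9 of 23 had an unadjusted p under 0.05, all of them lower, against 8.52% of features lower at that p. The 2 of smallest p were Ccl4 at -0.70 ± 0.18 (limma adjusted p = 0.0665; 4.67 to 5.91 in WT and 4.27 to 4.90 in SIRT1Tg) and Cxcl16 at -0.47 ± 0.15 (limma adjusted p = 0.125). Both passed when the WT array BAT_1959 was left out. Summed macrophage levels were 9.55 to 10.47 in SIRT1Tg BAT and 9.82 to 11.46 in WT, and their part was not tested. In eWAT 0 of 27 passed, against 0.0594% of features, and 4 had an unadjusted p under 0.05, all lower, against 4.36% of features lower at that p. Cxcl10 stood nearest, at -0.82 ± 0.16 (limma adjusted p = 0.0518), from 4.73 to 5.90 in WT to 4.24 to 4.99 in SIRT1Tg, where 3 of 6 arrays detected it. Ccl4 followed at -1.21 ± 0.30 (limma adjusted p = 0.142), and both passed under median scaling; Cxcl10 also passed without the WT array WAT_1960 or WAT_1961 (limma adjusted p = 0.0113 and 0.048). Of 11 measured receptors in SIRT1Tg eWAT, Cx3cr1, the receptor of Cx3cl1 on monocytes and macrophages, fell by 0.90 ± 0.16 (limma adjusted p = 0.0294). In both fat tissues SIRT1Tg was hybridised to 3 slides without any WT array of the tissue, so slide and genotype cannot be told apart there. In muscle 0 of 19 passed, against 0.0317% of features, and 3 had an unadjusted p under 0.05, against 8.46%; the 2 smallest p belonged to Ccl27a at -0.29 ± 0.11 and Ccl5 at -0.45 ± 0.18 (limma adjusted p = 0.511 and 0.527).

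In the other CR and EX comparisons no ligand passed either. In liver under CR 0 of 24 passed, against 0.271% of features, and 1 had an unadjusted p under 0.05, against 6.66%: Ccl9, at 0.58 ± 0.22 (limma adjusted p = 0.549), with 8.29 to 9.55 in WT and 9.23 to 9.78 under CR. Ccl3 came next, at 0.60 ± 0.34 (limma adjusted p = 0.841). In liver under EX 0 of 24 passed, against 0.0201%, and 1 had an unadjusted p under 0.05, against 8.63%: Ccl19, at 0.47 ± 0.18 (limma adjusted p = 0.541), ahead of Ccl24 at -0.19 ± 0.09 (limma adjusted p = 0.577). In muscle under CR 0 of 19 passed and 1 had an unadjusted p under 0.05, against 0% and 6.11% of features (limma). The 2 of smallest p were Cxcl9 at -0.43 ± 0.19 and Cxcl16 at -0.21 ± 0.10 (limma adjusted p = 0.769 and 0.817).

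In muscle under EX 0 of 19 ligands passed, against 2.03% of features (limma), and 2 had an unadjusted p under 0.05, against 16.3%. These were Ccl25 at -0.57 ± 0.23 and Ccl11 at -0.34 ± 0.16 (limma adjusted p = 0.213 and 0.276). In BAT under CR 0 of 23 passed, against 0.269% of features, and 2 had an unadjusted p under 0.05, against 10%: Cxcl9 at -0.49 ± 0.22 and Cxcl14 at -0.42 ± 0.19, both with a limma adjusted p of 0.471. In eWAT under EX 0 of 27 passed, against 0.00848% of features, and 4 had an unadjusted p under 0.05, against 4.13%. Cxcl10 at -0.60 ± 0.18 and Ccl7 at -0.87 ± 0.29 had the smallest p, with a limma adjusted p of 1 for both. Ccl7 read 6.59 to 7.72 in WT and 4.88 to 6.70 under EX, where the array WAT_1971 was also the lowest in summed macrophage genes, at 10.78.

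Whether a condition acted differently across the 4 tissues was tested over all 96 arrays, normalised together, by limma's moderated F test of the condition by tissue interaction, for the 27 ligands measured in at least 1 tissue. For CR 4 of 27 passed, where 2.81% of 12533 features did: Ccl8 (adjusted p = 0.00536), Ccl7 (0.00604), Ccl9 (0.00712) and Ccl6 (0.0361). Ccl7 was detected on 24 of 24 eWAT arrays, 11 in BAT, 7 in liver and 1 in muscle. Ccl8 was detected on 24, 21, 10 and 15. Ccl6 in WT read 7.65 in eWAT and 5.10 to 5.38 elsewhere. Ligands near background in a tissue can hardly fall there. For Ccl8, Ccl7 and Ccl6 the test therefore cannot tell an effect confined to eWAT from a low level elsewhere. Ccl9 was detected on 24 of 24 arrays in every tissue. In the fits by tissue under CR, Ccl8 differed from WT by -1.93 ± 0.29 in eWAT, -0.19 ± 0.37 in BAT, -0.33 ± 0.22 in muscle and 0.12 ± 0.28 in liver. Ccl9 differed by -1.81 ± 0.36 in eWAT and by 0.58 ± 0.22 in liver, the one tissue in which it lay above WT. Ccl6 lay within 0.05 of WT in BAT, muscle and liver. Ccl8 did not pass this test without the number series term (limma adjusted p = 0.108), and Ccl6 did not without the detection filter (0.0562).

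For SIRT1Tg 1 of 27 ligands passed the F test, where 0.247% of features did: Cxcl1 (limma adjusted p = 0.00568, and 0.0116 without liver_1953, an alternative added after the data were seen). It differed from WT by -2.004 ± 0.404 in liver, -0.28 ± 0.15 in BAT, 0.06 ± 0.15 in muscle and 0.04 ± 0.30 in eWAT. Liver was also the WT tissue in which Cxcl1 stood highest, at 8.98, against 6.13 in eWAT, 5.06 in BAT and 4.69 in muscle. It was detected on 17 of 24 BAT arrays and 13 of 24 muscle arrays. A fall as large as that in liver could hardly appear in these 2 tissues. For EX 0 of 27 passed, against 0.862% of features (limma), and 4 had an unadjusted p under 0.05, with Cxcl16 nearest at an adjusted p of 0.141. The fall of the 6 ligands in BAT under EX is thus not shown to differ from their course in the other tissues.

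**Figure D5:**
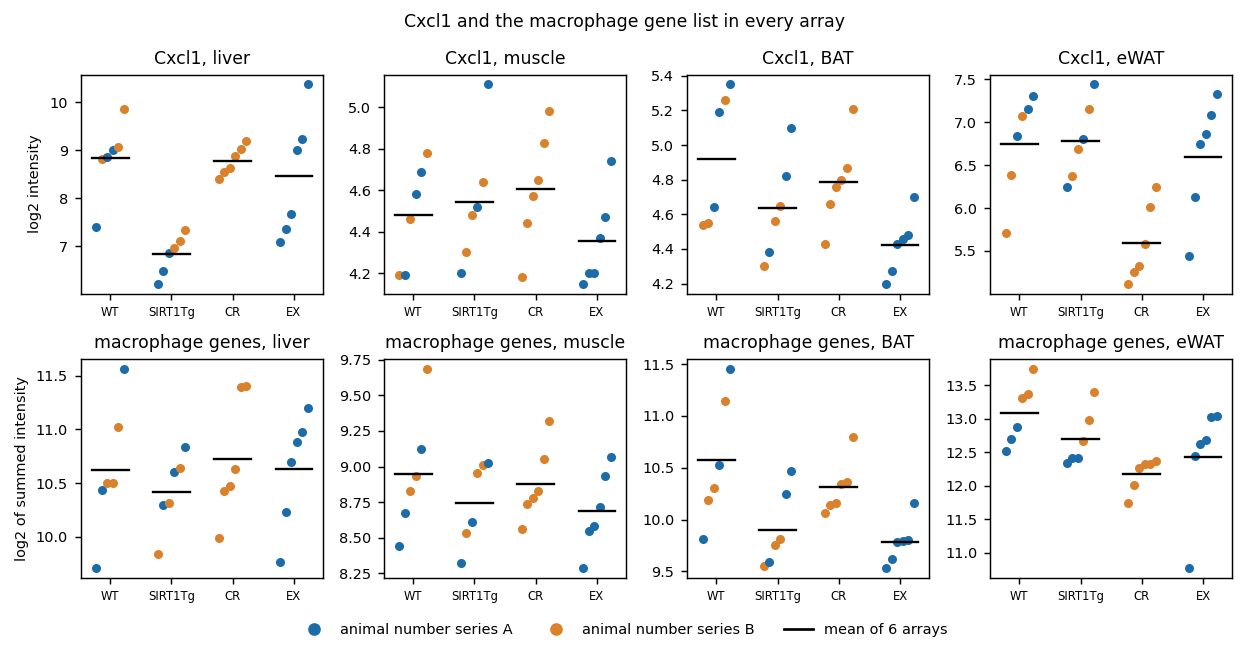
Cxcl1 (upper row, log2 intensity) and the summed macrophage genes (lower row, log2 of the summed intensity) on every array of the 4 tissues; points are arrays, coloured by animal number series, and bars are means of 6, with a separate vertical scale in each panel. In liver every SIRT1Tg array of Cxcl1 lies below every WT array, and in eWAT every CR array of the macrophage sum lies below every WT array.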

How the data were processed

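RNA was measured on Illumina mouse bead arrays. The deposited table holds non-normalized probe intensity values, and the deposited series matrix holds log2 values whose sorted columns differ by at most 0.0037, with a column median of 6.718; GenomeStudio and Partek are named in the submitters' processing notes, with no version given. No detection p-values were used: each array's background was read from the mode of its own intensities. In R 4.3.3 with limma 3.58.1, intensities were background corrected by normexp (offset 16), put on the log2 scale and quantile normalised over the arrays of each fit: the 24 of a tissue for conditions, the 24 WT arrays for WT tissues and all 96 for the F test.

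A probe was detected above the upper 0.05 tail of background, kept when detected on 6 of 24 arrays, and a gene was represented by its kept probe of highest mean. Probes were named through current gene IDs (23962) or the platform symbol (16), and 1719 had no symbol. Each tissue was fitted over 4 conditions plus number series by limma, with Benjamini-Hochberg adjustment over all features and a threshold of 0.05. WT tissues (3 or more WT arrays detecting) and the condition by tissue F test were fitted over tissues. The scripts were tested on simulated data.

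The members, gene lists and tests were chosen with earlier results of these data known. Genes named are those that passed, or the 2 of smallest p where none did, the 4 of largest difference each way between WT tissues, and up to 4 list members that passed. The columns of other series numbered 0. Animal numbers pair samples across tissues and not across conditions within a tissue; deviations of 1 animal in 2 tissues correlated at a median of 0.103 over 135 pairs (from -0.295 to 0.437), against -0.019 for other animals of the condition. Alternatives were the deposited log2 matrix, no background correction, median scaling, no detection filter, every probe as a feature, no series term, slide as a random or fixed term, 1 number series alone, animal as a block, and leaving out each array; the F test without 1 SIRT1Tg liver array was added after seeing the data.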

Additional observations from a re-analysis of the deposited data

Results flagged for a closer look

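Of 58 groups of 6 arrays tested for ligands that passed or were named, 4 held an array whose gap to its nearest neighbour exceeded Dixon's critical value for 6 arrays; chance passes about 5% of groups. Ccl25 in WT muscle was highest on muscle_1961, at 7.37, with the next array at 6.51. In CR eWAT the array WAT_2241 was lowest in Ccl6, at 5.87 (next 6.86), and in Ccl9, at 8.94 (next 9.64). Without that array 6 ligands passed in eWAT under CR. Ccl7 in EX eWAT was lowest on WAT_1971, at 4.88, with the next array at 6.17, and the summed macrophage genes of that array were 10.78 on the log2 scale.

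Condition effects differed between tissues by the limma F test for Cxcl1 under SIRT1Tg (adjusted p = 0.00568) and, under CR, for Ccl8 (0.00536), Ccl7 (0.00604), Ccl9 (0.00712) and Ccl6 (0.0361). For Ccl8, Ccl7 and Ccl6 the low levels outside eWAT limit what this test can show, and for Cxcl1 the low levels in muscle and BAT do.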

How the results depend on the processing

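Over the alternatives tried, 6 ligands passed in eWAT under CR in the fit as reported and 0 with slide as a fixed term, where each ligand that passed kept its sign. The highest count there was 9, with series B alone. Ccl4 and Ccl5 were added with the deposited log2 matrix, without background correction and under median scaling. In BAT under EX 6 passed as reported, 3 without a detection filter, which tests more features, and 0 with slide as a fixed term, where the 6 kept their sign; median scaling gave 9, all lower, and slide as a random block gave 7, with Ccl27a higher. Cx3cl1 there was -0.17 without background correction (limma adjusted p = 0.051) against -0.61 as reported, and Cxcl1 was -0.50 without the series term (0.0886). For SIRT1Tg, liver had 1 ligand (Cxcl1) with slide as a random block and 1 with series B alone, and eWAT had 2 under median scaling. As each array was left out in turn, counts ranged from 4 to 8 in eWAT under CR, from 3 to 8 in BAT under EX, from 0 to 2 in BAT under SIRT1Tg, from 0 to 1 in liver and in eWAT under SIRT1Tg, and stayed at 0 in the other comparisons of condition with WT. Of the differences followed, which did not include Ccl27a between WT liver and eWAT, 1 turned. It was Ccl27a between WT muscle and eWAT, at -0.02 under median scaling, and the cause was not tested. WT liver Cxcl10 did not pass under median scaling (limma adjusted p = 0.0654) and WT liver Cxcl12 did not without a detection filter (0.0526). With the animal as replicate block across tissues, the F test gave 4 ligands for CR, 1 for SIRT1Tg and 0 for EX, as without it, and between WT tissues it added 1 ligand in liver, Cxcl9 (-1.08, limma adjusted p = 0.0466), for 19 against 18, and changed no other count. The estimated correlation within a slide ran from 0.0871 (liver) to 0.193 (BAT). Ligands near background, such as Cxcl10 in eWAT, Ccl4 and Cxcl1 in BAT and the genes detected on few arrays, have compressed differences, and the 6 arrays a group limit the precision of all.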
